A study of Mus musculus with 16 samples.

Results

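The adrenal glands of 8 mice given an antibody against CD115 were compared by sex, 4 females against 4 males, out of 16 mice in the series, to ask which differences between female and male glands were measured when macrophages had been depleted. CD115 is the receptor for colony stimulating factor 1 (CSF1R), on which most tissue macrophages depend. All mice were 7-week-old C57BL/6J wild-type animals, and RNA of the whole gland was sequenced, so the values average cortex, medulla, capsule and any tissue still attached. The anti-CD115 mice had received 500 µg of clone AFS98 intraperitoneally, repeated 2 days later, and were killed 16 hours after the second dose. The other 8 mice, 4 females and 4 males, had received the isotype antibody 2A3 on the same schedule, and they serve below as the glands with macrophages. The treatment notes also describe housing in the cold, which no sample label names, and it is not known whether any of these mice had it. Both glands of a mouse were crushed together. Of 51912 genes listed in the count tables, 47607 lie on chromosomes 1 to 19 (GRCm38), and 16033 of these passed the filter on low counts. Genes of the X and Y chromosomes, of the mitochondrion and of unplaced scaffolds were left out of every count below.

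The mouse adrenal cortex makes glucocorticoids in its zona fasciculata and aldosterone in its zona glomerulosa, and the medulla inside it holds the chromaffin cells that make adrenaline and noradrenaline. In young mice a further layer, the X-zone, lies next to the medulla. It regresses at puberty in males and persists in virgin females, which makes it a textbook example of a sexually dimorphic tissue. Female and male mouse glands also differ in size, in steroid reduction and in cell turnover, under the influence of gonadal hormones.

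The count tables held between 23196317 and 26314672 fragments assigned to genes per mouse. Levels are given as CPM (counts scaled to the library's size, with TMM normalization), values for the 4 mice of a group are listed in the order of mouse 1 to 4, and a fold change is female over male on the log2 scale, so that positive values are higher in females. A gene was called when its Benjamini-Hochberg adjusted p was under 0.05 in edgeR's quasi-likelihood test. In RNA from a whole gland, fewer cells of a type and less RNA per cell cannot be told apart. The labels do not say whether mice shared a litter, cage or day, and the libraries were numbered by group, so that library order and sex cannot be told apart.

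Before any comparison, the treatment labels were checked against macrophage genes. The sex labels were not checked against genes of the X and Y chromosomes. The summed level of 21 macrophage markers, of which the lysozyme gene Lyz2 had the highest CPM, was 202, 116, 161 and 127 CPM in the anti-CD115 females and 176, 172, 150.1 and 205 CPM in the anti-CD115 males. In isotype mice it was 723, 810.4, 825 and 550.3 CPM in females and 818, 834, 956 and 820.4 CPM in males, above every anti-CD115 mouse. Csf1r, the gene of the targeted receptor, lay at 10.04, 4.97, 6.33 and 6.16 CPM in anti-CD115 females and at 8.36, 9.53, 6.88 and 8.24 CPM in anti-CD115 males, and no isotype mouse was below 41.5 CPM. Between the sexes of the anti-CD115 mice Csf1r overlapped (log2 fold change -0.27 ± 0.17 (SE), adjusted p = 0.283). Cyp11b1, the last enzyme of corticosterone synthesis, had 8192, 6924, 7869 and 7921 CPM in females and 3817, 5072, 4819 and 4687 CPM in males.

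A pair of male anti-CD115 libraries stood apart. Mouse 1 had the lowest total count, a mitochondrial share of 22.8% of counts where the other 7 anti-CD115 mice had 12.5% to 14.9%, and the highest fat marker sums of the 8. The 15 white fat markers (Fabp4 with the highest CPM in the males and Cfd in the females, both named for that level) summed to 5503, 771, 648 and 1289.5 CPM in the males and 915, 745, 1399 and 1040.0 CPM in the females. The 11 brown fat markers (Ucp1, the heat-producing uncoupling protein, with the highest CPM in the males and Pdk4 in the females) summed to 899, 44.2, 43.1 and 155 CPM in males and 60.8, 76.1, 57.1 and 75.1 CPM in females. Male mouse 4 was second among males in both fat sums, and it also held a trace of X-zone transcripts: 469 counts of Akr1c18, where the other males had 0, 1 and 1. Where leaving out either mouse, or any other single mouse, ended the call of a gene named below, the adjusted p then found is given beside it.

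**Figure D1:**
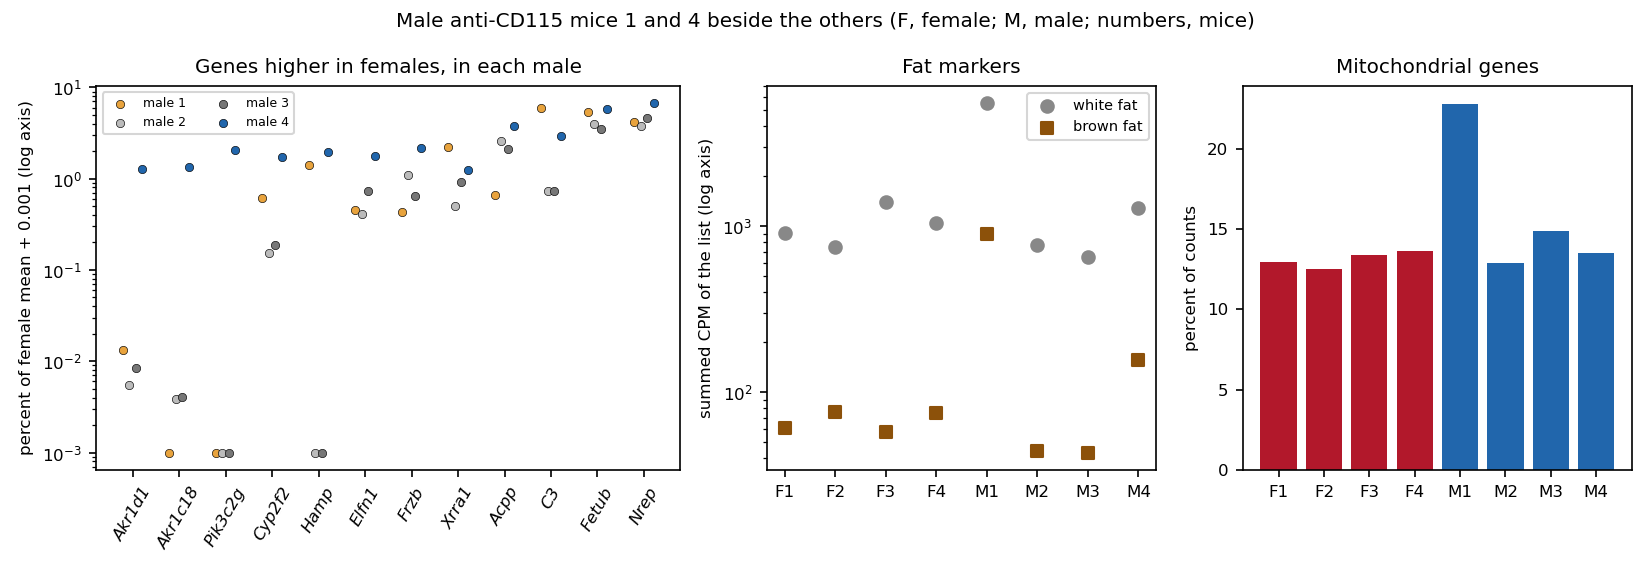
Left, the level of the 12 leading female-higher genes in each male anti-CD115 mouse as a percentage of the female mean (log axis, 0.001 added); middle, summed CPM of white and brown fat markers per mouse (log axis); right, the share of counts from mitochondrial genes. Male mouse 4 was the highest male for 10 of the 12 genes, at 1.33% of the female mean for Akr1c18, and male mouse 1 was the highest of the 8 mice in both fat sums and in the mitochondrial share.

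Females and males differed widely after depletion. Of the 16033 autosomal genes tested, 3435 were called (21.4%), 1775 of them higher in females (11.1%) and 1660 higher in males (10.4%). The 4 females and 4 males did not overlap for 3988 genes, which is 24.9% of those tested. Large differences leaned to females: 425 called genes were at least 1 log2 unit higher in females against 360 in males, and 171 against 83 were at least 2 units higher. Without male mouse 1, 3350 genes were called, 2843 of them among the 3435. Without male mouse 4, 3118 were called with 2820 shared, and without both mice 2541 with 2235 shared. Other mice moved the calls too. Without male mouse 2, 3348 were called with 2936 shared, and without male mouse 3, 2666 with 2548. Leaving out 1 anti-CD115 female gave 2600 to 2768 called, with 2537 to 2672 shared.

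Of the sex differences called in glands with macrophages, 64.1% were called again. In isotype mice 2980 autosomal genes were called (18.6%), 1362 higher in females (8.49%) and 1618 higher in males (10.1%), and the sexes did not overlap for 3274 (20.4%). Of these 2980 genes, 1910 (64.1%) were called in the same direction in the anti-CD115 mice, which are other animals, and 2892 (97.0%) had the same sign there. None was called in the opposite direction. Those 1910 genes were 55.6% of the 3435 called in anti-CD115 mice. The share called again was 70.6% for genes higher in isotype females (962 of 1362) and 58.6% for genes higher in isotype males (948 of 1618). It was 80.3% for genes that differed by at least 2 log2 units (187 of 233). Across all 16033 genes 71.5% had the same sign in the 2 treatments.

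**Figure D2:**
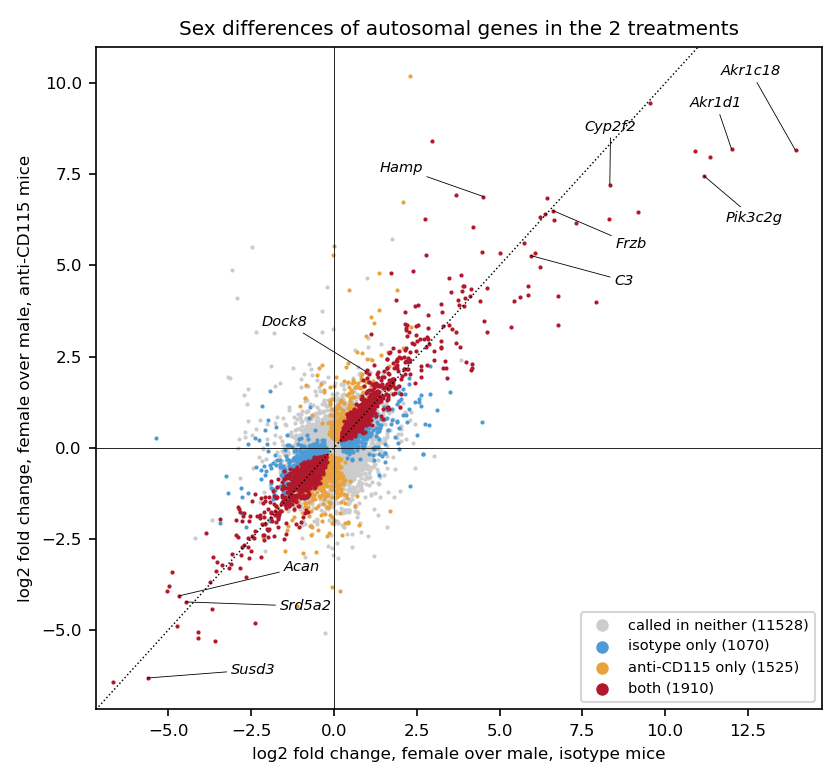
Each point is an autosomal gene, with the log2 fold change of females over males in isotype mice on the x axis and in anti-CD115 mice on the y axis; colours give the treatments in which the gene was called and the dotted line marks equal values. The 1910 genes called in both treatments lie at the upper right and lower left, and none was called in opposite directions.

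When the difference between the sex effects of the 2 treatments was itself tested, no gene passed in edgeR's quasi-likelihood test (0.0% called, smallest adjusted p = 0.633), while 1209 (7.54%) had an unadjusted p under 0.05. DESeq2's Wald test called 2 genes, Dock8 and Ces1c. A gene called in 1 treatment alone is therefore not shown to differ between them, and no gene is shown to be alike in them.

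Among named genes whose sexes did not overlap and whose mean log2 CPM reached 1, the 3 largest fitted differences were in X-zone genes; some genes of lower level had larger fitted values. Akr1c18 encodes 20-alpha-hydroxysteroid dehydrogenase, which inactivates progesterone and is the classical X-zone marker (chromosome 13, 4132615 to 4150654, minus strand). It had 1318, 1253, 1237 and 1415 CPM in the anti-CD115 females and 0, 0.0369, 0.0400 and 17.4 CPM in the males. Akr1d1, the steroid 5-beta-reductase, had 1957, 1602, 1673 and 1313 CPM in females and 0.202, 0.0739, 0.120 and 21.1 CPM in males. Pik3c2g, a lipid kinase used as a marker of the X-zone, had 54.4, 46.2, 56.6 and 36.3 CPM in females and 1.00 CPM in male mouse 4, with no count in the other 3 males. That none of the 3 genes overlapped between the sexes was a condition of the choice, and their adjusted p-values were 2.50e-06, 1.54e-04 and 1.31e-07. Their fitted fold changes rest on mouse 4, since the other males were at or near 0. Mouse 4 stood at 1.33%, 1.29% and 2.07% of the female mean for the 3 genes, and without it their adjusted p-values were 1.25e-20, 1.22e-15 and 5.59e-11. DESeq2's Wald test gave no p-value for Akr1c18 and Akr1d1, whose log2 fold changes there were 8.23 ± 1.58 and 8.26 ± 1.26 (SE), so those calls were neither kept nor lost, and Pik3c2g was called. In isotype males Akr1c18 had 0, 2, 0 and 4 counts.

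Of the 6 genes listed as X-zone genes, 4 were called higher in anti-CD115 females and 2 higher in males. The split was the same in isotype mice. Over all autosomal genes 21.4% were called in anti-CD115 mice and 18.6% in isotype mice. The list's median log2 fold change was 4.58 in anti-CD115 mice and 6.42 in isotype mice, against -0.02 and 0.01 over all autosomal genes. With DESeq2's Wald test 2 of the 4 were called and the other 2 had no p-value, and with a filter of at least 10 counts in every mouse 1 of the 4 could be tested and was called. Without male mouse 4 the anti-CD115 median was 7.48. Thrb, the beta thyroid hormone receptor, was the fourth that was higher in females, with 68.3, 88.9, 81.5 and 68.1 CPM against 26.04, 20.3, 25.4 and 21.7 CPM (log2 fold change 1.72 ± 0.13 (SE), adjusted p = 1.16e-08). The 2 that went the other way were Susd3, a sushi-domain membrane protein, and Abcb1b, a drug efflux pump. Susd3 had 2.10, 1.28, 1.51 and 0.82903 CPM in females and 58.6, 151, 139.8 and 108 CPM in males (log2 fold change -6.32 ± 0.37 (SE), adjusted p = 2.64e-08). Abcb1b had 995, 1030.3, 943 and 1041 CPM in females and 2632, 1974, 2462 and 1728 CPM in males (log2 fold change -1.13 ± 0.13 (SE), adjusted p = 2.67e-06). In these whole glands both went against the list's name, in either treatment (-5.63 and -1.56 in isotype mice).

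Promoters are shown for an X-zone marker (Akr1c18), a P450 enzyme (Cyp2f2), both genes that lead the male side (Susd3 and Srd5a2) and an enzyme of cholesterol synthesis (Hmgcs1), chosen after their values were seen: 250 bases before the transcription start, read 5′ to 3′ on the gene's strand from build GRCm38.p6. The starts are those of RefSeq. For Akr1c18 and Srd5a2 they lie inside the gene coordinates given in the text, so these windows overlap those coordinates. Capitals mark AAGGTCA, the site of the steroidogenic factor SF-1 (Nr5a1), or its reverse complement TGACCTT.
Akr1c18, chr13:4150647-4150896, minus strand: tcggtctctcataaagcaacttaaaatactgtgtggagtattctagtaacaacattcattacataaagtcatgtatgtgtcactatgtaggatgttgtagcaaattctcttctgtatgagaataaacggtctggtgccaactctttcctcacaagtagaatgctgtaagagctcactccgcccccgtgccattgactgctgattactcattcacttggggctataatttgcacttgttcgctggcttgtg
Cyp2f2, chr7:27119705-27119954, plus strand: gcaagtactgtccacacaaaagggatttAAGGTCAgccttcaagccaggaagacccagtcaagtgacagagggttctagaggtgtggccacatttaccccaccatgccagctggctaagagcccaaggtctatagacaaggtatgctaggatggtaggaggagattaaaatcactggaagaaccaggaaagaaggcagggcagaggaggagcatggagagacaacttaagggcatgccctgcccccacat
Susd3, chr13:49248295-49248544, minus strand: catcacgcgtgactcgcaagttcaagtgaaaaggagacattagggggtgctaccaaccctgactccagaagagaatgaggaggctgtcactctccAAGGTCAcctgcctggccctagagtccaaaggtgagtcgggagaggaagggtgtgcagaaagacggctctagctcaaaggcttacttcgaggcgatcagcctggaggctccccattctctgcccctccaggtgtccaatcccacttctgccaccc
Srd5a2, chr17:74047861-74048110, minus strand: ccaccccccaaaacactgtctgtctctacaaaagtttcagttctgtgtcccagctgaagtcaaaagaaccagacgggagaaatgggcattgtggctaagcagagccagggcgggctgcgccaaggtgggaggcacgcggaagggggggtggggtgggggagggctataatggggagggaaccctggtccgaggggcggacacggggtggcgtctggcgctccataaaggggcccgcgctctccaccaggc
Hmgcs1, chr13:119690101-119690350, plus strand: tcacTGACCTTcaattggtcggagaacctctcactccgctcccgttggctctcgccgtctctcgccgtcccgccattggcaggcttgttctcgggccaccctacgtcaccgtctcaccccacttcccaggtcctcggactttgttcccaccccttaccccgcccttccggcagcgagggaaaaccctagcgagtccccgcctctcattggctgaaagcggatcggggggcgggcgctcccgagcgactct
The Akr1c18 and Srd5a2 windows hold none of the letters searched, and those of Cyp2f2, Susd3 and Hmgcs1 hold 1 SF-1 match each. Over the 300 bases from 250 before to 50 after the start, 4.54% of the promoters of female-higher genes (61 of 1344), 4.36% of those of male-higher genes (53 of 1216) and 4.16% of those of all autosomal genes tested (471 of 11335) held AAGGTCA on either strand. For the cAMP response element TGACGTCA the shares were 2.83%, 3.04% and 3.45%. The palindromic estrogen response element, which shares the letters GGTCA with the SF-1 site, and the palindromic androgen or glucocorticoid response element were found in 0 called genes, and in 2 and 1 of the 11335 promoters.

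Other female-leading genes came from several functions. Cyp2f2, a cytochrome P450 best known from lung and liver, had 1547, 1036, 1201 and 1249 CPM in females and 7.66, 1.92, 2.36 and 21.8 CPM in males (log2 fold change 7.21 ± 0.76 (SE), adjusted p = 2.40e-05). Frzb, a secreted antagonist of Wnt ligands, had 674, 546, 595 and 571 CPM against 2.57, 6.47, 3.84 and 12.8 CPM (log2 fold change 6.50 ± 0.39 (SE), adjusted p = 7.46e-08). Complement C3 had 5971, 2469, 4632 and 3322 CPM against 246, 29.9, 30.04 and 120.3 CPM (log2 fold change 5.27 ± 0.74 (SE), adjusted p = 2.69e-04). For each of the 3 genes the lowest female was above the highest male, which was a condition of their choice. C3 was also among the genes of highest CPM that differed by 1 log2 unit or more, together with Adh1, an alcohol and retinol dehydrogenase (8060.4, 7550.3, 7961 and 7320.2 CPM in females, 3316, 1081, 1669 and 1153 in males, log2 fold change 2.10 ± 0.32 (SE), adjusted p = 3.72e-04), Aldh2 (1.17) and the glutathione transferase Mgst1 (1.70). Male mouse 1 was the highest male for C3 and Adh1. Further genes at the top of the female side, each without overlap by the same condition, were Hamp (hepcidin, the iron hormone), Elfn1, Xrra1, Acpp, Fetub and Nrep, with log2 fold changes from 4.38 (Nrep) to 6.89 (Hamp, which had no count in males 2 and 3). All 12 leading female genes were also called in isotype females, with log2 fold changes from 3.91 (Fetub) upwards.

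By the same criteria the male side was led by Susd3 and by Srd5a2, the type 2 steroid 5-alpha-reductase that makes dihydrotestosterone (chromosome 17, 74017706 to 74047916, minus strand). Srd5a2 had 976, 1045, 1226 and 909 CPM in males and 49.6, 52.3, 43.3 and 75.6 CPM in females (log2 fold change -4.23 ± 0.17 (SE), adjusted p = 1.54e-12, and -4.47 ± 0.17 in isotype mice (adjusted p = 8.18e-13)). Prss35, a serine protease homologue, had 1211, 1551, 1760.3 and 1401 CPM in males and 254, 274, 240.3 and 287 CPM in females (log2 fold change -2.49 ± 0.13 (SE), adjusted p = 2.61e-11). For both genes the groups of 4 were far apart relative to their own range. Cxcr4, the receptor of the chemokine CXCL12, was more variable, with 144, 329, 469 and 332 CPM in males and 26.4, 25.4, 37.4 and 46.98 CPM in females (log2 fold change -3.23 ± 0.51 (SE), adjusted p = 6.95e-04). Acan (the proteoglycan aggrecan), Myo1a, Serpina6 (corticosteroid-binding globulin), St8sia5, Xkr5, the potassium channel genes Kcnk1 and Kcnmb4, Pdgfrl and Tent5b followed, with log2 fold changes from -4.07 (Acan) to -2.71 (Tent5b). Several of these were low: Serpina6 had 9.13 ± 1.12 CPM in males and 0.921 ± 0.108 CPM in females (SD, n = 4 each). All 12 leading male genes were called in isotype males too, from -2.52 (Pdgfrl) downwards. Among the genes of highest CPM, Acsbg1, Jun and Osgin1 were also higher in males by 1.08 to 1.12 log2 units in size (-1.12, -1.08 and -1.09).

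**Figure D3:**
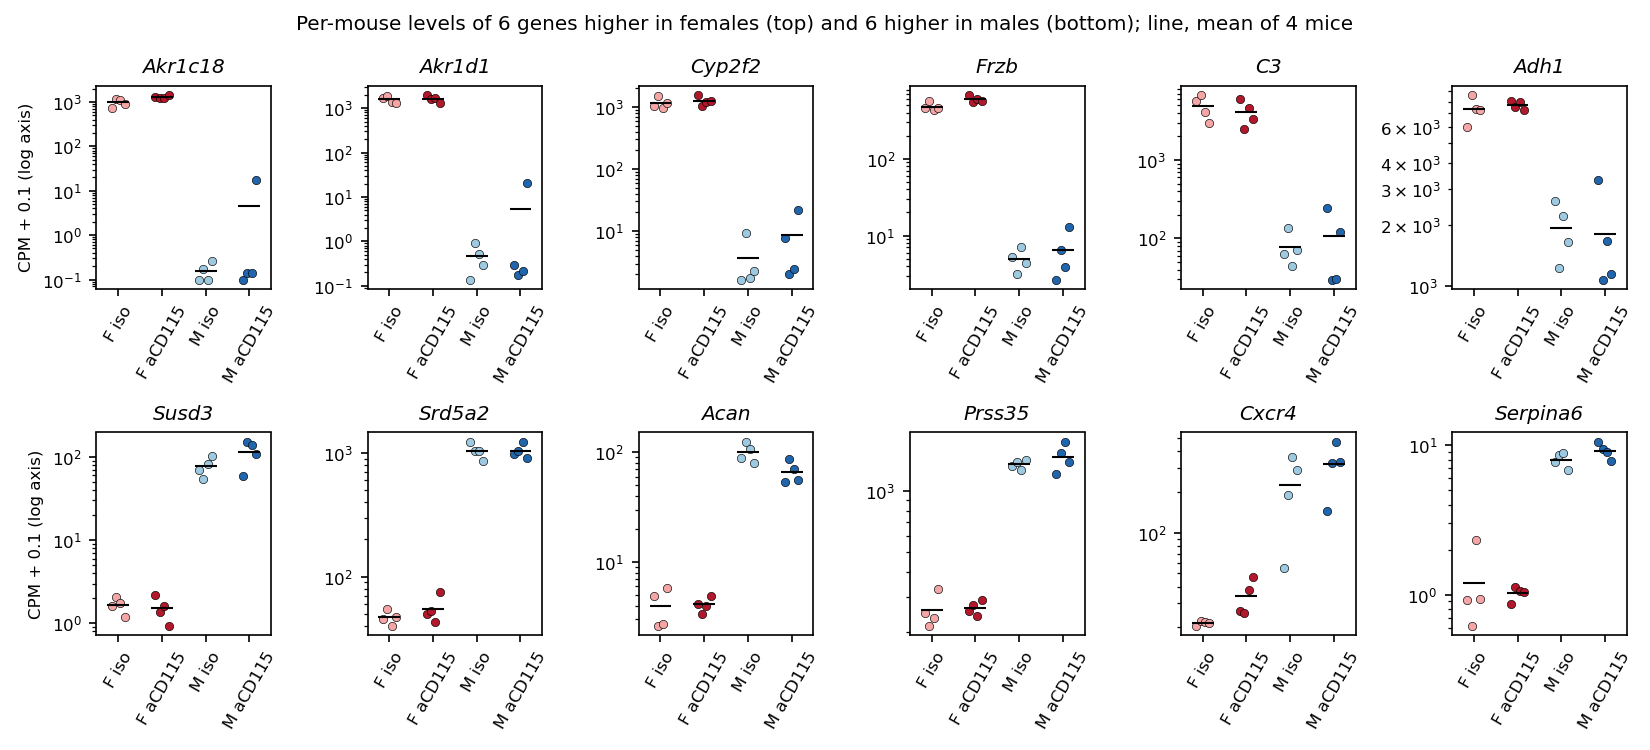
Level of 12 genes in every mouse as CPM plus 0.1 on a log axis, by sex (F, M) and treatment (iso, aCD115), with the mean of 4 mice as a line. Females and males do not overlap for any of the 12 genes within a treatment, and male anti-CD115 mouse 4 lies above the other males for Akr1c18 and Akr1d1. For most of the genes, no overlap in anti-CD115 mice was a condition of their choice.

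Genes of steroid synthesis were called in both directions. Of 21 tested genes of the pathway and its regulators, 6 were called higher in females and 6 in males in each treatment. That was 57.1% of the list, against 21.4% of all autosomal genes in anti-CD115 mice and 18.6% in isotype mice. Star, which carries cholesterol into the mitochondrion, and Cyp11a1, which cleaves its side chain, both named after their values were seen, were not called (0.02 ± 0.12 and -0.23 ± 0.11). Cyp11b1 was higher in females (log2 fold change 0.75 ± 0.12 (SE), adjusted p = 1.24e-04), without overlap between the values given above. Cyp21a1, the 21-hydroxylase, had 24996, 23080.2, 22292 and 22728 CPM in females and 14115, 13347, 17542 and 12949 CPM in males (log2 fold change 0.68 ± 0.15 (SE), adjusted p = 0.00208). It has a closely similar pseudogene, so fragments that match both may be lost. The transcription factor Nr5a1 had 1135, 1052, 1209 and 940.4 CPM in females and 688, 505, 620.0 and 443 CPM in males (log2 fold change 0.94 ± 0.15 (SE), adjusted p = 1.65e-04). Por, which passes electrons to microsomal P450 enzymes, was higher in females as well (0.74 ± 0.14, adjusted p = 5.64e-04). On the male side were Fdx1 and Fdxr, which pass electrons to the mitochondrial P450 enzymes, and Hsd3b6, the 3-beta-hydroxysteroid dehydrogenase of the zona glomerulosa. Hsd3b6 had 107, 113, 155 and 171 CPM in males and 63.1, 47.3, 55.4 and 55.98 CPM in females (log2 fold change -1.30 ± 0.23 (SE), adjusted p = 0.00110). The log2 fold change was -0.81 ± 0.21 (adjusted p = 0.0117) for Fdx1 and -0.38 ± 0.09 (adjusted p = 0.00486) for Fdxr. Fdx1 was not called when male mice 1 and 3 were left out together (-0.45 (adjusted p = 0.208)).

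In the zona glomerulosa and capsule list, 1 of 14 genes was called higher in females and 2 in males, which at 21.4% is the share of all autosomal genes (21.4%). Without male mouse 1 the counts were 0 and 5. Cyp11b2, aldosterone synthase, overlapped between the sexes with 108, 67.5, 108 and 97.2 CPM in females and 79.9, 92.4, 128 and 196 CPM in males (log2 fold change -0.38 ± 0.27 (SE), adjusted p = 0.339). Shh, the hedgehog ligand of cortical progenitors, was higher in males with 85.3, 115, 113 and 143 CPM against 36.7, 36.7, 45.6 and 55.8 CPM in females (log2 fold change -1.38 ± 0.16 (SE), adjusted p = 7.13e-06, and -1.47 ± 0.16 in isotype mice (adjusted p = 3.69e-06)). Dab2, an endocytic adaptor, was called higher in females by a small margin (log2 fold change 0.40 ± 0.13 (SE), adjusted p = 0.0287) and lost its call without male mouse 1 or 3 or female mouse 1, 3 or 4 (adjusted p from 0.0517 to 0.111). Of 20 Wnt pathway genes, Tcf7 and Notum were called, both higher in males (-0.67 and -0.78), and both were called in isotype males as well. The share called was below the 21.4% of all genes. Without male mouse 1 the Wnt count was 5, and it was 4 with the length trend of each mouse removed.

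Genes of cholesterol synthesis and uptake, which supply the substrate for steroids, leaned to females. Of 29 tested, 16 were called higher in females and 4 in males, with a median log2 fold change of 0.56. That was 69.0% of the list, against 21.4% of all autosomal genes (11.1% higher in females and 10.4% in males). In isotype mice the counts were 14 and 2 and the median 0.42. There 8.49% of all autosomal genes were called higher in females and 10.1% in males. Hmgcs1, an early enzyme of the mevalonate pathway, had 293, 255, 251 and 239.9 CPM in females and 76.7, 70.1, 70.9 and 64.7 CPM in males (log2 fold change 1.88 ± 0.14 (SE), adjusted p = 1.23e-08). Lipa, the lysosomal lipase that frees cholesterol from its esters, had 466, 437, 421 and 429 CPM in females and 119.8, 125, 123 and 121 CPM in males, each group spanning a narrow range (log2 fold change 1.84 ± 0.09 (SE), adjusted p = 4.49e-12). Hsd17b7, which also acts in cholesterol synthesis, was 2.18 ± 0.16 in anti-CD115 mice and 1.61 ± 0.16 in isotype mice. The difference of these 2 values had an unadjusted p of 0.0180 and did not pass adjustment. The genes higher in males were Scarb1, the receptor for high-density lipoprotein (log2 fold change -0.66 ± 0.18 (SE), adjusted p = 0.0112), Npc1 (-0.48), Abcg1 (-0.39) and Apoe (-0.59), which move cholesterol within or out of cells. Scarb1 overlapped between the groups: male mouse 4 had 2977 CPM, the other males at least 4686 CPM, and female mouse 4 3666 CPM. Apoe was not called without male mouse 1 or 4 or female mouse 2 or 4 (adjusted p from 0.0721 to 0.0799), nor Abcg1 without male mouse 2 or 3 or female mouse 4 (adjusted p from 0.0545 to 0.0817). The male-higher count of 4 was 2 without female mouse 4 and 0 without male mice 1 and 3 together, where the female-higher count was 19.

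**Figure D4:**
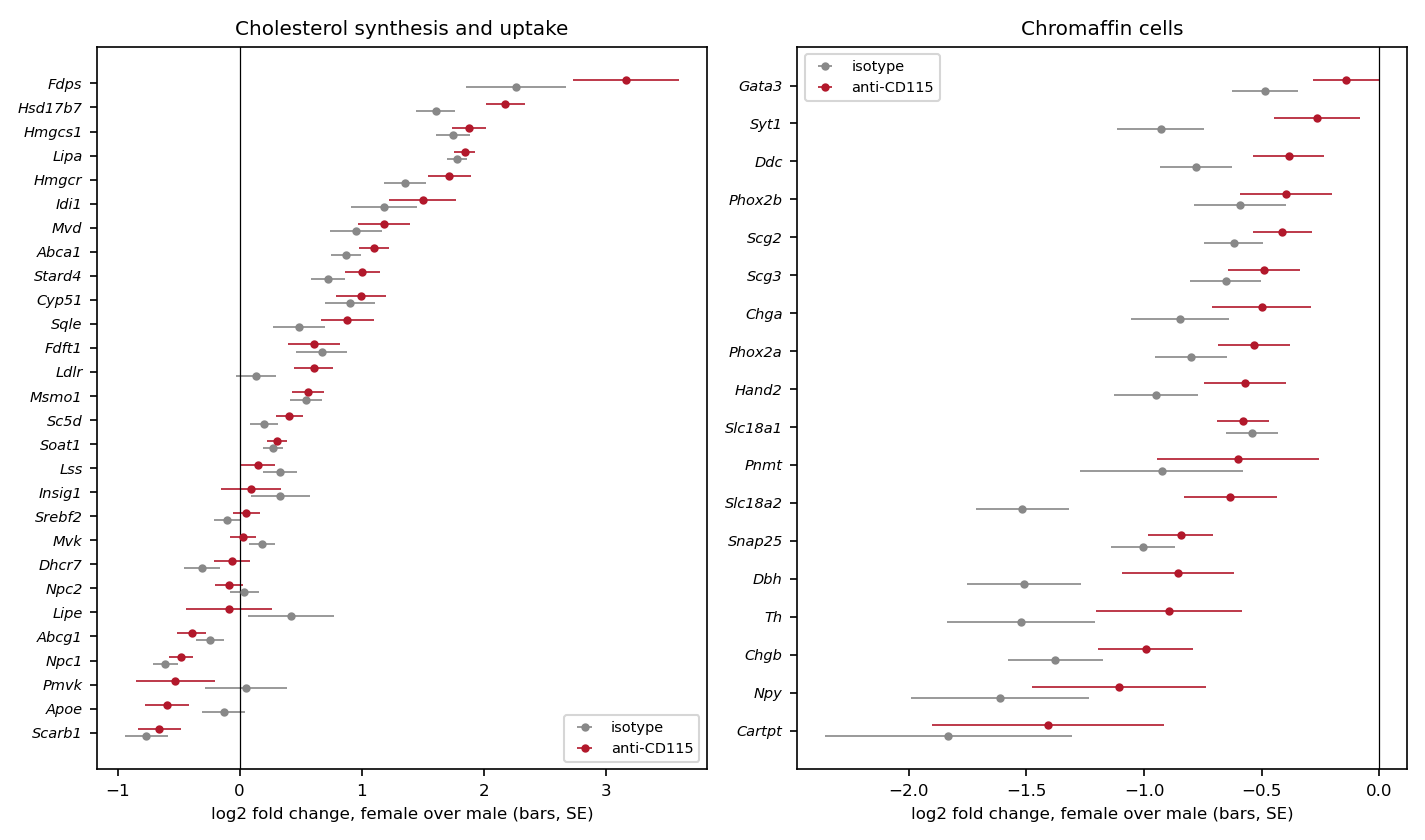
Log2 fold change of females over males with its standard error for tested genes of cholesterol synthesis and uptake (left) and for chromaffin cell genes (right), in anti-CD115 (red) and isotype (grey) mice. Fdps (a low-count gene, named after its value was seen) and Hsd17b7 lie farthest to the female side of the genes drawn on the left, and all 18 chromaffin genes lie on the male side in both treatments.

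Of 23 genes of fatty acid synthesis and storage, 4 were called higher in females and 2 in males, a share of 26.1% that is near the 21.4% of all genes. Gpam, the first enzyme of glycerolipid synthesis, had 152, 159, 126 and 154 CPM in females and 34.3, 19.03, 21.4 and 20.8 CPM in males (log2 fold change 2.64 ± 0.28 (SE), adjusted p = 1.15e-05). Scd2 and Elovl5, which desaturate and lengthen fatty acids, were also higher in females (0.47 and 0.55), as was Cpt1a (0.41). Scd2 did not pass without male mouse 1 or 3 or female mouse 1 (adjusted p from 0.0528 to 0.0719), nor Cpt1a without male mouse 1 or female mouse 4 (adjusted p from 0.0550 to 0.0739). Me1, the cytosolic malic enzyme, was higher in males with 2781, 2902, 2722 and 2565 CPM against 1614, 1569.5, 1544 and 1749.8 CPM in females (log2 fold change -0.76 ± 0.11 (SE), adjusted p = 3.06e-05). Lpin1 was called higher in males (log2 fold change -0.92 ± 0.29 (SE), adjusted p = 0.0349), with male mouse 1 at 136 CPM and the other males at 46.2 to 56.1 CPM. Without mouse 1 its value was -0.44 (adjusted p = 0.0192), and it was not called without female mouse 1, 2, 3 or 4 (adjusted p from 0.0590 to 0.0859), which left Me1 alone on the male side.

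Among 25 genes of xenobiotic metabolism, 7 were called higher in females and 5 in males. That was 48.0% of the list, against 21.4% of all autosomal genes (11.1% higher in females and 10.4% in males). Besides Cyp2f2, the female side held Aox1, an aldehyde oxidase (69.1, 76.1, 60.6 and 57.9 CPM against 31.8, 30.9, 24.6 and 29.4 CPM, log2 fold change 1.18 ± 0.12 (SE), adjusted p = 2.61e-07), the P450 Cyp2d22 (0.63) and Gsta2, a glutathione transferase that had 0, 0, 0 and 2 counts in males and 1.47 to 2.22 CPM in females. Gsta2 has close paralogues, so fragments that match several of them may be lost. The male side held 4 other glutathione transferases, Gstt1, Gstm2, Gsta4 and Gstm1, at -0.82, -0.80, -0.50 and -0.47. Gstm2 had 380.3, 410.4, 428 and 379.7 CPM in males and 216, 203, 249 and 252 CPM in females (log2 fold change -0.80 ± 0.14 (SE), adjusted p = 3.13e-04).

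Of 19 hormone receptor genes, 6 were called higher in females and 3 in males. That was 47.4% of the list, against 21.4% of all autosomal genes (11.1% higher in females and 10.4% in males). Prlr, the prolactin receptor, had 429, 361, 463 and 388 CPM in females and 97.2, 127, 126 and 146 CPM in males (log2 fold change 1.72 ± 0.12 (SE), adjusted p = 4.49e-09, and 1.79 ± 0.12 in isotype mice (adjusted p = 2.35e-09)). The receptors for insulin (Insr, 0.47) and for insulin-like growth factor (Igf1r, 0.53) were higher in females by smaller amounts. Vdr, the vitamin D receptor, was higher in males with 35.97, 37.9, 34.2 and 34.3 CPM against 17.6, 14.6, 16.04 and 14.6 CPM in females (log2 fold change -1.18 ± 0.14 (SE), adjusted p = 3.33e-06). Its sex difference was -1.84 in isotype mice, and the difference between treatments had an unadjusted p of 0.00351. Thra, the alpha thyroid hormone receptor, and Rara were higher in males (-0.32 and -0.44), so that Thrb and Thra went in opposite directions. Thra was not called without male mouse 4 (adjusted p = 0.0509), nor Rara without male mouse 2 or female mouse 1 (adjusted p from 0.0508 to 0.0530).

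Genes of the medulla lay on the male side. All 18 chromaffin cell genes had a negative log2 fold change in anti-CD115 mice, 9 were called and the median was -0.58. Over all autosomal genes 8366 of 16033 were negative in anti-CD115 mice, and 10.4% were called higher in males. In isotype mice 17 of the chromaffin genes were called and their median was -0.93. There 10.1% of all autosomal genes were called higher in males. Chgb, a granule protein with the highest CPM of the list in males, had 8392, 4381, 6922 and 5266 CPM in males and 3652, 3084, 2905 and 2896 CPM in females (log2 fold change -0.99 ± 0.20 (SE), adjusted p = 0.00169). Th, the first enzyme of catecholamine synthesis, had 1681, 606, 1235 and 938 CPM in males and 585, 622, 509.7 and 684 CPM in females, with male mouse 2 inside the female range (log2 fold change -0.89 ± 0.31 (SE), adjusted p = 0.0559). Dbh, which makes noradrenaline, had 2425, 1194, 1932 and 1461 CPM in males and 1038, 917, 834 and 1085 CPM in females (log2 fold change -0.86 ± 0.24 (SE), adjusted p = 0.0189), and it was not called without male mouse 1 or female mouse 2 or 3 (adjusted p from 0.0507 to 0.0592). The synaptic protein gene Snap25 and Slc18a1, the vesicular monoamine transporter of chromaffin cells, were steadier (-0.84 ± 0.14 and -0.58 ± 0.11), and neither overlapped between the sexes. The summed list was 23639.8, 12462, 19508 and 15358 CPM in males, of which mouse 1 was the highest, and 11782, 10291, 9655 and 10504 CPM in females. Phox2a, a transcription factor of these cells, was -0.53 ± 0.15 (adjusted p = 0.0176) and lost its call without male mouse 2 or female mouse 3 (adjusted p from 0.0508 to 0.0547). Ddc, which makes dopamine, was -0.38 ± 0.15 (adjusted p = 0.0765). The count of 9 was unstable: it ranged from 3 without female mouse 3 to 12 without male mouse 2, was 6 without male mouse 1 and 5 without male mouse 3. For Dbh and Th the difference between treatments had unadjusted p-values of 0.0715 and 0.172. The share of medulla in each gland was not tested.

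Among 19 circadian clock genes, 6 were called higher in females and 6 higher in males in each treatment. That was 63.2% of the list, against 21.4% of all autosomal genes in anti-CD115 mice and 18.6% in isotype mice. Nr1d1, a repressor that is a direct output of the clock, had 693, 504, 721 and 427 CPM in females and 132, 231, 158 and 155 CPM in males (log2 fold change 1.79 ± 0.20 (SE), adjusted p = 9.39e-06). Its paralogue Nr1d2, and Rora, which binds the same sites as an activator, were higher in females (0.97 and 0.90). The activator Arntl had 60.4, 65.5, 63.00 and 62.3 CPM in males and 30.04, 35.6, 26.3 and 38.2 CPM in females (log2 fold change -0.95 ± 0.13 (SE), adjusted p = 1.44e-05), and Cry1 and Per2 were higher in males as well (-0.99 and -0.88), while Cry2 was higher in females (0.58). Time of day at collection is not given by mouse, so it cannot be told apart from sex.

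Among 14 heat shock genes, 6 were called higher in males and 1 in females after depletion, and 1 and 2 in isotype mice. The shares of all autosomal genes were 10.4% and 11.1% after depletion, and 10.1% and 8.49% in isotype mice. No gene of the list passed adjustment for a difference between treatments in edgeR's quasi-likelihood test. Hspb1, a small heat shock protein, had 208, 248, 246 and 236 CPM in males and 71.3, 62.1, 101 and 72.01 CPM in females (log2 fold change -1.61 ± 0.20 (SE), adjusted p = 2.03e-05, and -1.10 ± 0.19 in isotype mice (adjusted p = 7.33e-04)). Dnajb1, a co-chaperone, was -0.97 ± 0.19 in anti-CD115 mice and -0.34 ± 0.19 in isotype mice, a difference with an unadjusted p of 0.0280. Hspa1b, the inducible HSP70, had 193, 371, 538 and 306 CPM in males and 98.3, 76.9, 101 and 104 CPM in females (log2 fold change -1.89 ± 0.48 (SE), adjusted p = 0.0143). It has a near-identical copy, Hspa1a (-1.72 ± 0.47 (adjusted p = 0.0213)), and fragments that match both may be lost. Hspa1a was not called without male mouse 3 or female mouse 2 (adjusted p from 0.0617 to 0.0622). Dnaja1, another co-chaperone, was -0.44 ± 0.12 (adjusted p = 0.0140) and was not called without female mouse 4 (adjusted p = 0.0601). The male count of 6 lay between 4 and 7 when any 1 anti-CD115 mouse was left out. Hspd1, the mitochondrial chaperonin, was the 1 gene higher in females (0.41). Of 17 immediate early genes only Jun was called (5.9%, against 21.4% of all genes). It was higher in males (374, 491, 681 and 429 CPM against 267, 189.6, 248 and 232 CPM in females). The list's median was 0.0051 in anti-CD115 mice and -1.20 in isotype mice. There 4 of the 17 genes were called, all higher in males, as were 10.1% of all autosomal genes. For 6 of the 17 genes the difference between treatments had an unadjusted p under 0.05, and none passed adjustment in edgeR's quasi-likelihood test.

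Cell division genes had a median log2 fold change of 0.54 in anti-CD115 mice and 0.20 in isotype mice, and 23 of 25 were positive after depletion. The test called 4 of them (16.0%, against 21.4% of all genes), all higher in females (Mki67, Top2a, Birc5 and Foxm1). None was called in isotype mice, where 18.6% of all genes were. Mki67, which marks dividing cells, had 13.95, 24.3, 10.4 and 23.3 CPM in females and 9.77, 9.02, 10.9 and 9.54 CPM in males (log2 fold change 0.87 ± 0.24 (SE), adjusted p = 0.0141). Females 2 and 4 were the highest, female 1 lay above every male and female 3 within the male range. The count of 4 was 1 without female mouse 2 or 4, 2 without male mouse 1, 8 without male mouse 3 and 13 without female mouse 3. The call was lost for Mki67 without female mouse 2 or 4 (adjusted p from 0.0504 to 0.0550), for Top2a without male mouse 1 or 3 or female mouse 1, 2 or 4 (adjusted p from 0.0518 to 0.0922) and for Foxm1 without male mouse 1, 2 or 4 or female mouse 2 or 4 (adjusted p from 0.0536 to 0.143). For Mki67 the difference between treatments had an unadjusted p of 0.260.

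Of 21 extracellular matrix genes, 3 were called higher in females and 6 in males. That was 42.9% of the list, against 21.4% of all autosomal genes (11.1% higher in females and 10.4% in males). Sparc, a matrix glycoprotein with the highest CPM of the list, was higher in females with 4061, 3506, 4002 and 3913 CPM against 2739, 2819, 3213 and 2934 CPM in males (log2 fold change 0.40 ± 0.10 (SE), adjusted p = 0.00809). Col4a2 (basement membrane collagen) and Pdgfra were also called higher in females (0.40 and 0.48). The call of Col4a2 was lost without male mouse 3 or female mouse 3 (adjusted p from 0.0542 to 0.0561) and that of Pdgfra without male mouse 1 or 3, female mouse 1, 3 or 4, isotype male 3 or 4 or isotype female 2, 3 or 4 (adjusted p from 0.0563 to 0.141), and the female-higher count of 3 was 1 without male mouse 3 or without female mouse 3. Collagen I (Col1a1), decorin (Dcn), collagen XIV (Col14a1) and elastin (Eln) were higher in males, at -0.62, -0.70, -0.84 and -1.01. Eln had 57.98, 55.5, 65.9 and 54.4 CPM in males and 30.6, 22.6, 32.5 and 30.2 CPM in females (log2 fold change -1.01 ± 0.12 (SE), adjusted p = 4.31e-06). Of 24 growth factor genes 5 were called (20.8%, against 21.4% of all genes), all of them higher in males where 10.4% of all genes were, among them Igfbp5 (347, 498, 610.0 and 442 CPM against 258, 228, 317 and 252 CPM, log2 fold change -0.85 ± 0.16 (SE), adjusted p = 7.69e-04), Pdgfa (-0.72), Fgf1 (-0.53) and the activin subunit Inhba (-1.36). In the list of smooth muscle, nerve and blood genes 6 of 9 were called higher in males (66.7%, against 10.4% of all genes). Among them were Acta2 (-0.69), Tagln (-0.59) and S100b (-1.07). The count lay between 3 and 5 when any 1 anti-CD115 mouse was left out, and was 1 without male mice 1 and 4 and 0 without male mice 1 and 3. Tagln was not called without male mouse 3 or female mouse 1 or 2 (adjusted p from 0.0509 to 0.0625), nor S100b without male mouse 1 or 4 or female mouse 1 or 3 (adjusted p from 0.0511 to 0.0961). Hbb-bs, an adult globin with a near-identical neighbour, had 141, 121, 109 and 153 CPM in males and 78.8, 53.5, 69.6 and 61.5 CPM in females, without overlap (log2 fold change -0.99 ± 0.26 (SE), adjusted p = 0.0131). The blood left in each gland was not tested.

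Of 20 macrophage genes tested, 1 was called (5.0%, against 21.4% of all genes). It was Itgax (CD11c), with 4.33, 4.54, 4.44 and 5.05 CPM in males and 3.14, 2.75, 2.94 and 1.86 CPM in females. Itgax was higher in males (log2 fold change -0.78 ± 0.19 (SE), adjusted p = 0.00536, and -0.70 ± 0.15 in isotype mice (adjusted p = 0.00210)). The count was 4, all higher in males, without female mouse 1, and the median of the list moved from -0.27 to -0.44. Adgre1 (F4/80), Cx3cr1 and Lyz2 overlapped and were not called (-0.61, -0.09 and -0.22). MHC class II genes were called higher in males for 6 of 10 in isotype mice (median -0.75), where 10.1% of all autosomal genes were. After depletion 2 of 10 were called (20.0%, against 21.4% of all genes), with a median of -0.39. The count of 2 was unstable: it was 4 without female mouse 1 (median -0.75), 1 without male mouse 2, and 0 without male mouse 1 or 4 or without female mouse 2, 3 or 4. It was also 0 with no filter on low counts, with fat markers as a covariate, with the length trend of each mouse removed and with each treatment fitted on its own 8 mice. H2-Aa had 82.3, 55.6, 56.96 and 83.9 CPM in males and 61.6, 29.8, 46.4 and 34.3 CPM in females, with the highest female above the lowest males (log2 fold change -0.69 ± 0.22 (SE), adjusted p = 0.0358), against -0.99 ± 0.22 in isotype mice (adjusted p = 0.00447). For H2-Aa the difference between treatments had an unadjusted p of 0.356, and the gene was not called without male mouse 1 or 4 or female mouse 2, 3 or 4 (adjusted p from 0.0590 to 0.0989). H2-Eb1, the other called gene, was -0.69 ± 0.23 (adjusted p = 0.0455) and was not called without male mouse 1, 2 or 4, female mouse 2, 3 or 4, isotype male 1 or 4 or isotype female 1 or 3 (adjusted p from 0.0530 to 0.120). Cd74, the invariant chain, was -0.47 ± 0.25 (adjusted p = 0.194) after depletion and -0.92 ± 0.24 (adjusted p = 0.0160) in isotype mice. Ciita, the regulator of these genes, had 4.19, 0.980, 1.19 and 0.671 CPM in females and 1.56, 1.37, 1.24 and 2.52 CPM in males (0.05 ± 0.51 (adjusted p = 0.958)), and female mouse 1 was the highest of the 8. Summed over the 11 genes, MHC class II was 388, 283, 257 and 375 CPM in anti-CD115 males and 340.1, 149, 237 and 178 CPM in anti-CD115 females. In isotype mice the sums were 1300.3, 1322, 1579 and 1324 CPM in males and 806, 859, 709 and 513 CPM in females, and the lowest isotype male was above the highest isotype female, while the groups overlapped after depletion.

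Of 11 tested genes that support or attract macrophages, 2 were called higher in females and 1 in males, a share of 27.3% against 21.4% of all genes. Il34, the second ligand of CSF1R, was higher in females in each treatment, with 69.7, 62.8, 62.9 and 69.95 CPM in anti-CD115 females and 21.9, 25.2, 27.5 and 29.8 CPM in anti-CD115 males (log2 fold change 1.34 ± 0.15 (SE), adjusted p = 1.86e-06, and 1.26 ± 0.15 in isotype mice (adjusted p = 3.74e-06)). Csf1, the first ligand, overlapped (53.3, 43.6, 48.2 and 41.96 CPM in females and 49.6, 52.8, 51.3 and 53.8 CPM in males, log2 fold change -0.15 ± 0.10 (SE), adjusted p = 0.330). Il10ra, the receptor of interleukin 10, was 0.89 ± 0.28 (adjusted p = 0.0257) and was not called without male mouse 1 or 3 or female mouse 1 or 3 (adjusted p from 0.0653 to 0.101). Cxcl12, the ligand of Cxcr4, was -0.41 ± 0.13 (adjusted p = 0.0286) and was not called without male mouse 2, 3 or 4 or female mouse 2, 3 or 4 (adjusted p from 0.0515 to 0.0851). Ccl2 and Ccl7, chemokines that recruit monocytes, were at or below 2.62 CPM in every anti-CD115 mouse and were not called. Of 20 interferon response genes, 4 were called (20.0%, near the 21.4% of all genes, of which 11.1% were higher in females), all higher in females (DESeq2's Wald test called 4 in females and 2 in males), among them Stat2, Gbp3 and Oasl2 (0.66, 0.78 and 0.50). Stat2 had 65.9, 63.7, 58.7 and 49.7 CPM in females and 47.2, 37.2, 35.9 and 30.9 CPM in males (log2 fold change 0.66 ± 0.12 (SE), adjusted p = 3.15e-04). Oasl2 was not called without male mouse 3 or 4 or female mouse 1, 2 or 4 (adjusted p from 0.0557 to 0.108). Ncr1, a receptor of natural killer cells, was called higher in females at a very low level (adjusted p = 0.00380). It had 0.806, 0.791, 0.358 and 0.553 CPM in females against 0, 0.0739, 0 and 0.186 CPM in males. These were 9 to 21 counts per female and 0 to 5 per male. Ncr1 was the 1 gene called among 16 of lymphocytes, natural killer cells and neutrophils (6.2%, against 21.4% of all genes). In isotype mice 3 of the 16 were called, all higher in females, where 18.6% of all genes were called and 8.49% were higher in females. Ly6a, a marker of several stem and immune cells, overlapped (-0.21 ± 0.16 (adjusted p = 0.379)). Among 12 endothelial genes none was called, against 21.4% of all genes. At most 1 was called when 1 mouse was left out, and 1 with DESeq2's Wald test. In isotype mice 3 of the 12 were called, all higher in females, against 18.6% of all genes called there. Of 4 tested genes of neighbouring organs, the elastase gene Cela1 was called higher in males (-0.25 ± 0.09 (adjusted p = 0.0471)) with all 16 mice. It was not called without male mouse 1, 2, 3 or 4, female mouse 1, 2, 3 or 4 or isotype female 2 (adjusted p from 0.0533 to 0.162), nor with no filter on low counts, with the replicate block, with fat markers as a covariate or with the length trend removed.

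The fat lists rested on male mouse 1. The median log2 fold change was -1.42 for 15 white fat genes and -1.52 for 10 brown fat genes in anti-CD115 mice. The medians were -0.04 and -0.0066 without male mouse 1, and 0.54 and 0.88 without both male mice 1 and 4. Only Slc2a4, the insulin-regulated glucose transporter, and Cox8b, a subunit of cytochrome oxidase in brown fat and muscle, were called. Slc2a4 had 122, 25.7, 20.3 and 32.3 CPM in males and 12.4, 11.2, 18.3 and 7.58 CPM in females (log2 fold change -2.004 ± 0.55 (SE), adjusted p = 0.0219, and -1.09 (adjusted p = 0.0368) without mouse 1), and it was not called without female mouse 1, 2 or 4 (adjusted p from 0.0558 to 0.0644). Cox8b had 206, 21.3, 22.1 and 35.3 CPM in males and 14.3, 15.4, 13.4 and 12.2 CPM in females (log2 fold change -2.35 ± 0.70 (SE), adjusted p = 0.0305, and -0.94 (adjusted p = 0.0675) without mouse 1), and it was not called without male mouse 1 or female mouse 1, 2, 3 or 4 (adjusted p from 0.0662 to 0.0759). The mitochondrial share of counts was 13.1% ± 0.499 in females and 16.00% ± 4.59 in males (SD, n = 4 each; exact permutation test of the mean, two-sided, p = 0.200), and the female minus male difference moved from -2.87 to -0.617 percentage points without male mouse 1.

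**Figure D5:**
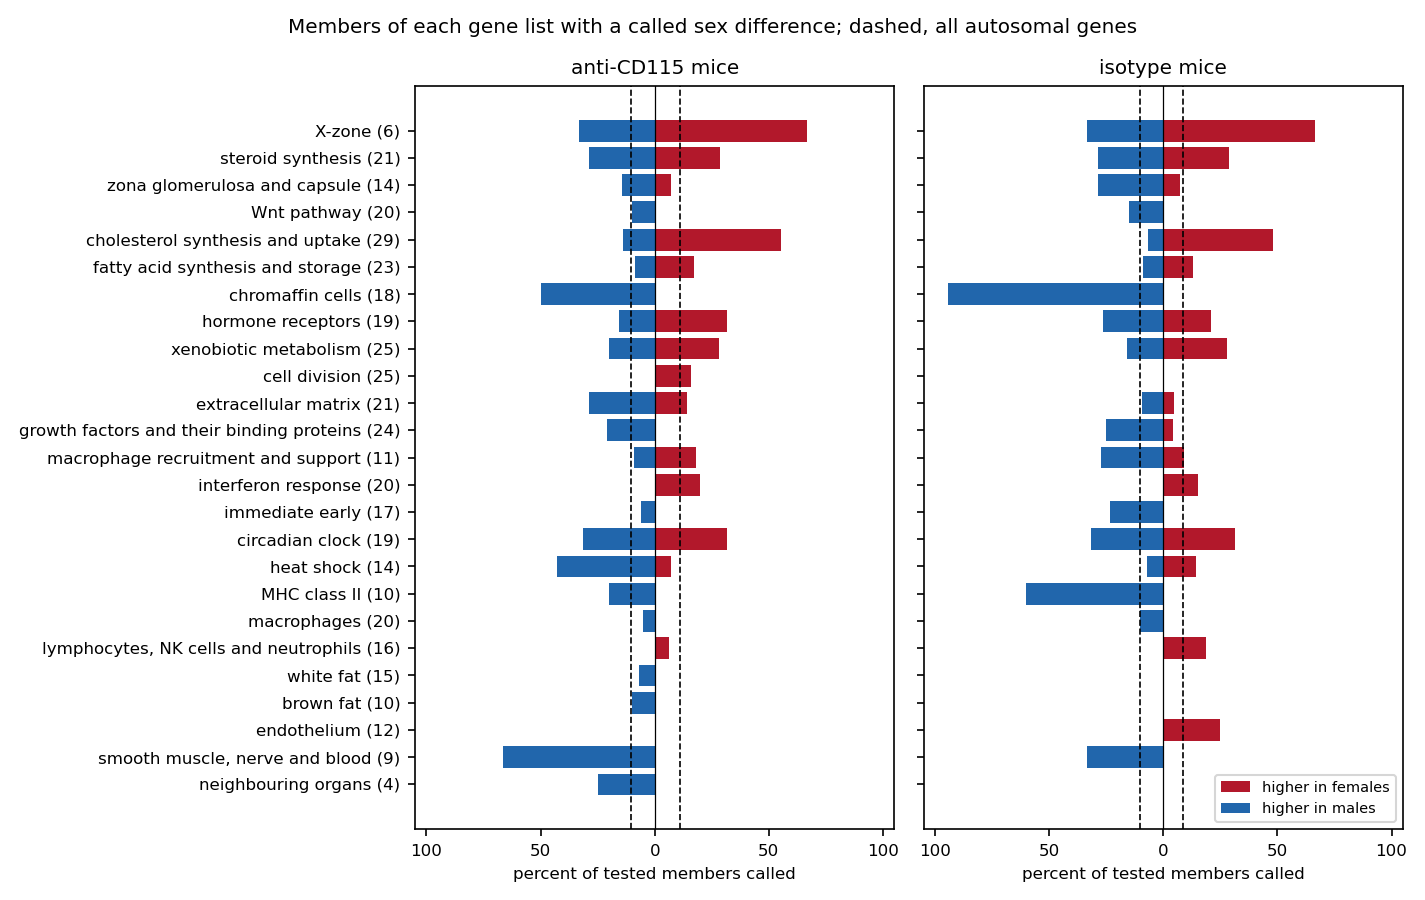
Percentage of the tested members of each gene list (number tested in brackets) called higher in females (red, right) or in males (blue, left) in anti-CD115 and isotype mice; dashed lines give the same for all autosomal genes, 11.1% and 10.4% in anti-CD115 mice. Cholesterol genes stand on the female side and chromaffin genes on the male side of both panels, and the fat lists have 1 called gene each after depletion.

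Some genes were called after depletion and not in isotype mice: 1525 in all, of which 1361 had the same sign in isotype mice. Those with the smallest p that were higher in anti-CD115 females were Rad54l2 (0.66), Ascc3 (0.67), Garem1 (1.08), Mlph (1.27), AI506816 (0.66) and Rac3 (1.81). Rac3, a small GTPase, had 6.33, 4.78, 3.06 and 4.42 CPM in females and 1.16, 1.81, 0.760 and 1.49 CPM in males (log2 fold change 1.81 ± 0.30 (SE), adjusted p = 1.51e-04, and 0.43 ± 0.26 in isotype mice (adjusted p = 0.279)). Higher in anti-CD115 males were Gcsh (-0.59), Taf1a (-1.05), Ldhb (-0.91), Igkc (-1.81), Plekho1 (-0.70) and Col14a1 (-0.84), of which Ldhb encodes lactate dehydrogenase B and Igkc the constant region of the kappa light chain. Igkc had 4.43, 3.21, 6.96 and 3.27 CPM in males and 1.25, 1.73, 1.19 and 0.869 CPM in females (log2 fold change -1.81 ± 0.29 (SE), adjusted p = 1.05e-04, and -0.29 ± 0.29 in isotype mice (adjusted p = 0.562)). Conversely 1070 genes were called in isotype mice alone, 982 of them with the same sign after depletion. Cldn5, a tight junction protein of endothelium, was 0.94 ± 0.14 in isotype mice (adjusted p = 8.89e-05) and had 16.9, 17.1, 20.5 and 14.5 CPM in anti-CD115 females and 16.1, 16.5, 13.2 and 16.8 CPM in anti-CD115 males, which overlapped (log2 fold change 0.14 ± 0.14 (SE), adjusted p = 0.525). Pcsk2, a prohormone convertase, was -1.02 ± 0.16 in isotype mice (adjusted p = 9.16e-05) and -0.11 ± 0.16 (adjusted p = 0.656) after depletion. The other genes of this kind with the smallest p in isotype mice were, with their values after depletion, F13a1 (1.70), Rab40c (0.29), Trim5 (0.54), Cmbl (0.26) and Anxa1 (0.13) on the female side and Slc41a2 (-0.37), Rcan3 (-0.16), Nptxr (-0.32), Clip3 (-0.27) and Syn2 (-0.54) on the male side.

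The genes with the smallest p in edgeR's quasi-likelihood test for a sex difference that changed with treatment were Dock8, Rflna, Irf8, Wt1, Sox17 and Pcsk2. None passed adjustment over all genes in that test, while DESeq2's Wald test called Dock8. Dock8, a guanine nucleotide exchange factor known from leukocytes, had 26.05, 23.7, 21.2 and 19.8 CPM in anti-CD115 females and 6.25, 5.25, 5.44 and 4.57 CPM in anti-CD115 males. In isotype mice it had 27.9, 31.6, 19.9 and 27.4 CPM in females and 11.7, 15.7, 15.4 and 11.6 CPM in males, so that the sexes did not overlap in either treatment (2.08 ± 0.16 and 0.97 ± 0.15; the difference had an unadjusted p of 4.99e-05 and an adjusted p of 0.633). Irf8, a transcription factor of the myeloid and lymphoid lineages, followed the same order, with 52.4, 50.6, 36.1 and 49.03 CPM in anti-CD115 females and 14.9, 11.1, 11.04 and 13.1 CPM in males (log2 fold change 1.91 ± 0.15 (SE), adjusted p = 1.00e-08, and 1.01 ± 0.14 in isotype mice (adjusted p = 2.87e-05)). For Sox17, a factor of arterial endothelium, males were higher after depletion (17.4, 9.75, 11.5 and 12.8 CPM against 6.33, 7.57, 7.60 and 6.20 CPM, log2 fold change -0.88 ± 0.17 (SE), adjusted p = 8.30e-04) and the isotype value was 0.09 ± 0.17 (adjusted p = 0.789). Rflna was -0.91 ± 0.18 (adjusted p = 0.00122) against 0.29 ± 0.20 in isotype mice (adjusted p = 0.348), and it was the 1 gene whose difference between treatments was called when male mouse 1 was left out. Wt1, expressed in the capsule and its progenitors, was 1.35 ± 0.39 (adjusted p = 0.0168) against -0.87 ± 0.31 in isotype mice (adjusted p = 0.0566), with overlap between the anti-CD115 groups, and it was not called without female mouse 4 (adjusted p = 0.0751).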

How the data were processed

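Whole adrenal glands of 16 mice were sequenced as stranded mRNA libraries. According to the submitters' processing notes and the methods, the authors used FastQC 0.11.9, HISAT2 2.2.1, SAMtools 1.3.1 and featureCounts 2.0.1 on GRCm38. The deposited files hold raw fragment counts per gene, whose headers give strand-aware paired counting without multi-mapping or overlapping fragments, so paralogues can lose fragments. The text names Ensembl 84 and the headers Ensembl 89.

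Samples were grouped by their labels. The counts of all 16 mice were fitted with 4 group means in edgeR 4.0.16 (R 4.3.3; TMM, filterByExpr with a minimum count of 10 and total of 15, robust quasi-likelihood test, two-sided), with Benjamini-Hochberg adjustment over 16654 genes, of which 16033 are autosomal. Contrasts were female minus male in each treatment and their difference. DESeq2 1.42.0 was an alternative. The scripts were tested on simulated data. Levels are CPM, with SD over 4 mice. In these libraries 3 counts, taken as an approximate upper limit for a count of 0 by counting error, correspond to 0.108 to 0.151 CPM.

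The genes named were, in each of 25 lists, up to 4 called per direction with the smallest p, the 12 per direction with the largest change and no overlap, the 6 per direction with the highest level, the 6 with the smallest p for the difference between treatments, up to 6 per direction called in 1 treatment only, and some genes the study names, of which Il10 and Apoc2 did not pass the filter on low counts, nor did Timd4 of the macrophage list. Genes with Gm or Rik symbols were not named, and a few other genes that these rules select are not reported here. The members, lists and rules were chosen with earlier results of these data known. Same-numbered mice did not deviate together, so replicate numbers were not used to pair mice. Promoters are from the RefSeq table (GRCm38.p6), which held 11335 of the 16033 genes.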

Additional observations from a re-analysis of the deposited data

Results flagged for a closer look

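In 27 of 388 sets of 4 anti-CD115 mice (6.96%), for a gene or a summed list, 1 mouse lay far from the other 3 by Dixon's ratio at its 95% critical value, which chance exceeds in about 1 in 20 sets. Male mouse 4 was far above the other males for Akr1c18 (17.4 CPM), Akr1d1 (21.1 CPM), Pik3c2g (1.002 CPM) and Gsta2 (0.0743 CPM, which is 2 counts), and far below them for Scarb1 (2977 CPM).

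Male mouse 1 was far above the other males for the white fat sum (5503 CPM), the brown fat sum (899 CPM), the fatty acid list (27295 CPM), Cfd (1230.5 CPM), Fabp4 (1428 CPM), Cox8b (206 CPM), Slc2a4 (122 CPM), Lpin1 (136 CPM) and Gpam (34.3 CPM), and far below them for Nr1d2 (21.7 CPM) and Pdgfrl (8.06 CPM). Hspd1 was high in male mouse 3 (931 CPM) and Snap25 low in male mouse 2 (40.8 CPM).

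Among females, mouse 4 was high for Rara (47.9 CPM), St8sia5 (2.41 CPM) and Tent5b (2.53 CPM), and mouse 1 for Ciita (4.19 CPM). Mouse 3 was low for Cela1 (36.6 CPM) and Kcnmb4 (0.279 CPM), and mouse 2 for Hspa1a (42.8 CPM), the growth factor list (2595 CPM) and the smooth muscle, nerve and blood list (327 CPM).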

How the results depend on the processing

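The counts of 1775 female-higher, 1660 male-higher and 1910 shared genes stayed within 1.5 times under every alternative except a fold change limit. When calls also had to differ by 1 log2 unit or more, they were 425, 360 and 464. Leaving out 1 mouse gave 1376 to 1912, 1224 to 1770 and 1639 to 2106, and the sex difference in the mitochondrial share moved from -3.92 to -0.617 percentage points. Without male mice 1 and 3 the counts were 1258, 1131 and 1730, and without male mice 1 and 4, an alternative chosen after seeing the data, 1333, 1208 and 1731. Genes whose sex difference differed between treatments numbered 0, but 2 with DESeq2's Wald test, 0 to 1 when 1 mouse was left out and 1 without male mice 1 and 4. That difference cannot be computed with each treatment on its own 8 mice.

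With the replicate block the counts were 1766, 1579 and 1883. The replicate numbers are only labels: correlations of same-numbered mice were -0.09 to -0.02 after depletion, and no mouse correlated best with its own number.

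Over 4852 values of named genes under the alternatives, 4488 kept direction and side of the threshold, 277 lost the call, 63 gained it and 24 changed sign. The alternatives were unlike in weight. The fold change limit alone lost 73 calls among 168 values. The loss was 7 to 18 without 1 anti-CD115 mouse, 0 to 2 without 1 isotype mouse, and 28 to 31 without 2 anti-CD115 males. Leaving out 1 mouse gave -0.82 to 0.34 for Ciita, -0.29 to 0.22 for Cx3cr1, -0.0691 to 0.12 for Star, -0.0319 to 1.21 for Pdk4 and -1.34 to 0.47 for Cfd. Ciita was -0.0668 with the replicate block and -0.16 without male mice 1 and 3, where Ly6a was 0.0974 and Cfd 0.20. With fat markers as a covariate Cfd was 0.39, Star -0.0204 and Ucp1 0.0118. Without male mice 1 and 4 the values were 1.05 for Cfd, 0.0440 for Cx3cr1, 0.17 for Fabp4, 0.0424 for Pcsk2, -0.14 for Star and 1.98 for Ucp1. None of the genes that changed sign was called with all 16 mice. The cause was not tested.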

Other observations

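Across the 16033 autosomal genes, the female over male log2 fold change ranked with gene length in anti-CD115 mice (Spearman's rho 0.21 across genes, which are not independent replicates) and not in isotype mice (0.01). With the length trend of each mouse removed, 3416 genes were called, 2963 of them among the 3435.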
